A study of Mus musculus with 8 samples.

Results

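The regions described here carried an anti-FLAG ChIP-seq peak for GLI2 in both replicates and no peak for GLI1 in either replicate. They were chosen from the 4 deposited peak lists. All peaks of the 19 autosomes were pooled, peaks overlapping by at least 1 bp were merged, and a merged region was kept when both GLI2 lists and neither GLI1 list had a peak in it. Of 134568 merged regions, 6455 met this rule, or 4.8% of all regions tested. The mirror rule, with GLI1 in both lists and GLI2 in neither, gave 6388 regions, or 4.75%. Below, the first set is called GLI2-only and the second GLI1-only. The names stand for the rule, since a place without a called peak may still be bound.

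GLI1 and GLI2 are zinc-finger transcription factors that carry the Hedgehog signal from the cilium to the genome. GLI2 is the main activator at the start of the response and can also be cut into a repressor, whereas GLI1 is itself a Hedgehog target and acts as an amplifier without a repressor form. Their zinc fingers recognise nearly the same DNA motif, so sites called for one factor and not for the other are of interest in their own right. No genome of the build of the files was at hand, so no sequence of a region is printed and the GLI motif was not searched.

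The cells of both groups came from the female mouse F1-2.1 embryonic stem line and carried the rtTA transactivator of a Tet-on system. The stable transgene, under tetracycline response elements, was GLI1-3xFLAG in one and GLI2-3xFLAG in the other. All were undifferentiated (day 0), grown with LIF on irradiated feeder fibroblasts, and given 1 µg/mL doxycycline and 100 nM SAG for 72 hours. SAG is an agonist of Smoothened, the membrane protein that switches the pathway on. The signal is thus that of a tagged, induced protein, and the labels do not say whether each line was a single clone. Peak lists hold no expression values, so the labelled cell type could not be checked against markers, and no list from cells without a FLAG transgene was analysed.

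There were 2 ChIP libraries per factor. The autosomes held 40624 and 52822 GLI1 peaks in replicates 1 and 2, and 25374 and 46187 GLI2 peaks. Each list was called separately, GLI1 at a cutoff of 1e-4 and GLI2 at the stricter 1e-5, and a setting named s was 50 in replicate 1 but 20 in replicate 2, so factor goes with cutoff and replicate number with setting. The effects of factor and of cutoff cannot be told apart. Read counts were not analysed, so the depth is unknown, and all intervals below are exact (Clopper-Pearson) 95% intervals that cover the counting of regions or peaks only.

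GLI2-only regions took up 25.5% of the GLI2 replicate 1 peaks (6461 of 25374) and 14.0% of the GLI2 replicate 2 peaks (6458 of 46187). Nearly all of them, 6446, consisted of exactly 1 peak from each replicate. A further 6 regions held more than 1 peak of replicate 1, and 3 held more than 1 peak of replicate 2. Together they covered 10.9 Mb, or 0.451% of the autosomal span that holds peaks. Among the 8896 autosomal regions with GLI2 in both replicates, 72.6% (71.6 to 73.5) had no GLI1 peak. GLI1 replicate 1 alone reached 779 of the others, GLI1 replicate 2 alone 1074, and both GLI1 lists 588. These shares follow from the rule and carry no test. Peaks were also often missing between replicates of the same factor. Of 25374 GLI2 replicate 1 peaks, 16466 lay in regions without a GLI2 replicate 2 peak. Of 40624 GLI1 replicate 1 peaks, 32057 lay in regions without a GLI1 replicate 2 peak. The share without a GLI1 peak is therefore no measure of a difference between the factors.

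Few regions lay within 200 bp of the limit of the rule. Only 15 GLI2-only regions touched a GLI1 peak end to end and 33 lay 200 bp from one, the spacing of the grid on which all peaks were placed. Their median replicate 1 score was 62.1 and their median width 1600 bp. The score is the authors' deposited value per peak, and they do not state its unit. It is used to rank and describe peaks within a list, and as a minimum in an alternative setting. On the other side of the limit, 10 regions missed the rule by an overlap of no more than 200 bp between their GLI2 and GLI1 peaks, with a median score of 69.1. In 95.7% of the 2441 GLI2-recurrent regions left out, the overlap with a GLI1 peak was at least 1000 bp, which is the width of the narrowest peak in every list.

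The peaks of the replicates were closely in register within GLI2-only regions. The centres of the replicate 1 and replicate 2 peaks lay a median of 100 bp apart, and in 76.9% of the 6446 regions with 1 peak each they lay within 200 bp. The centres coincided in 1660 regions (25.8%), and both ends were identical in 1183 (18.4%). One peak lay wholly inside the other in 84.8%. Peaks of these widths could overlap with their centres up to a median of 1400 bp apart, yet 554 regions (8.59%) exceeded 500 bp and 33 overlapped by the minimum of 200 bp. Replicate 2 peaks were not displaced to one side, with a median signed distance of 0 bp. The rule asked for overlap and not for matching centres, but overlap limits the distance, so this is given as a description.

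Register was also close between lists of different factors. In regions with exactly the replicate 2 lists of both factors, the centres lay within 200 bp in 79.8% of 4545 cases, a higher share than in GLI2-only regions. GLI1-only regions followed with 71.0% of 6374. For GLI1 replicate 1 with GLI2 replicate 2 the share was 67.7% of 1726, and for GLI1 replicate 2 with GLI2 replicate 1 it was 62.8% of 940. The replicate 1 lists of both factors had the lowest share, 59.0% of 1636. The order of the pairs thus followed the lists involved as much as the factor, and close register was not particular to GLI2-only regions.

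**Figure D1:**
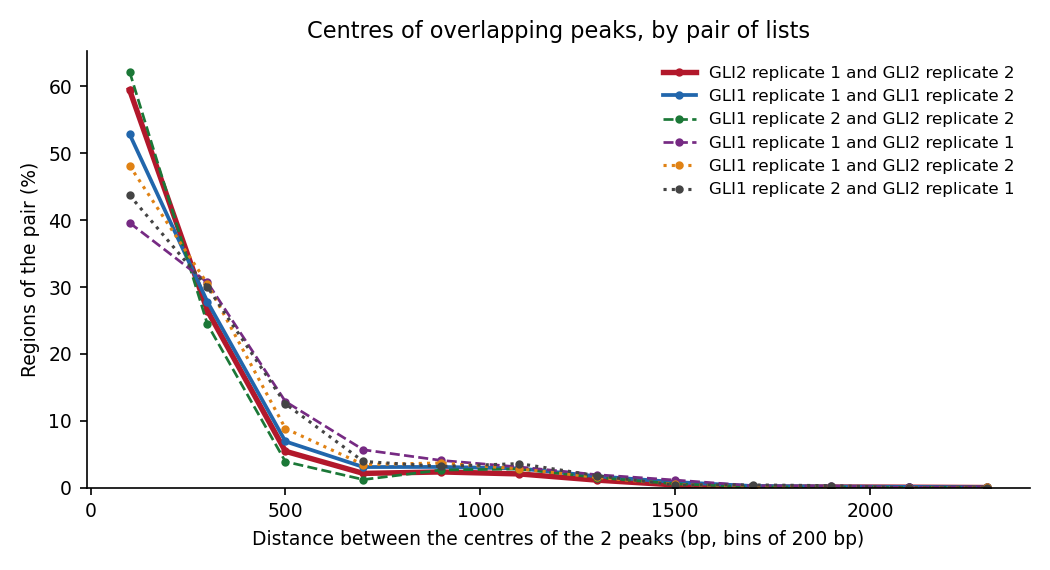
Distance between the centres of overlapping peaks (x axis, bp, in bins of 200 bp) as a share of the regions that hold peaks of exactly the named pair of lists (y axis, %), 1 line per pair and regions with 1 peak per list only. The thick red line is the GLI2-only set: 59.5% of its regions fall in the first bin and 26.5% in the second, close to the pair of replicate 2 lists of different factors.

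GLI2-only regions had a median width of 1600 bp, quartiles of 1400 and 1800 bp and a maximum of 6600 bp. Most of them, 4423, were 1400 to 1800 bp wide. The distribution had a small second rise: 148 regions were 2200 to 2600 bp wide, against 297 of 2800 to 3400 bp. GLI1-only regions had the same median and the same second rise, with 179 and 332 regions in those bands. In all, 802 GLI2-only regions (12.4%) and 1052 GLI1-only regions (16.5%) reached 2000 bp. Regions with GLI2 in both lists and GLI1 in at least 1 were wider, at a median of 1800 bp, and 28.6% of them reached 2000 bp. The 108853 regions with a peak in only 1 list were narrower, at a median of 1200 bp, and 3.57% of them reached 2000 bp. Merging with further peaks widens a region, so these differences follow in part from how regions were built.

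**Figure D2:**
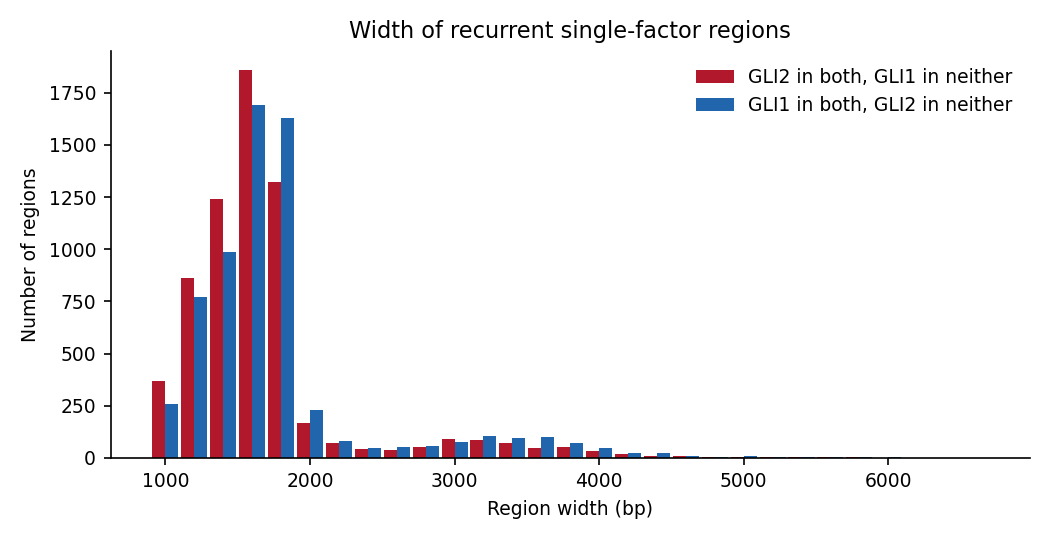
Number of regions (y axis) by width (x axis, bp) for the 6455 GLI2-only regions (red) and the 6388 GLI1-only regions (blue), plotted over the range of the GLI2-only set. Both sets have their main mode at 1600 bp and a low second rise near 3000 bp.

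Within each GLI2 list, peaks in GLI2-only regions were slightly wider than the other autosomal peaks. The medians were 1400 against 1200 bp in replicate 1 and 1400 against 1200 bp in replicate 2. The narrowest class, 1000 bp, held 25.3% of these peaks in replicate 1 against 30.3% of the others, and 23.6% against 30.9% in replicate 2. The rule asks for overlap with GLI2 and bars overlap with GLI1, and the part of either in these widths was not tested. The widths of a region's 2 peaks were only weakly related across the 6446 regions (Spearman's rho 0.133, given as a description). Replicate 1 had the wider peak in 2349 regions, replicate 2 in 2502, and the widths were equal in 1595.

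Replicate 1 scores of GLI2-only peaks ran from 50.0 to 337, with a median of 59.9 and quartiles of 54.5 and 67.2. They lay between the scores of the other kinds of GLI2 replicate 1 peak. Peaks that did not recur in replicate 2 had a median of 57.7, and recurrent peaks met by GLI1 a median of 61.9. Scores of at least 100 were found in 106 GLI2-only peaks (1.64%), 131 recurrent peaks met by GLI1 (5.35%) and 99 non-recurrent peaks (0.601%). At the other end, 328 GLI2-only peaks had a score under 51, just above the lowest score of the list. The score rose with the width of the replicate 1 peak itself (rho 0.555 over 6446 regions) but hardly with the width of its partner in replicate 2 (rho 0.0619). When the regions were cut at the quartiles of score, from the lowest to the highest group the median replicate 1 width went from 1000 to 1600 bp, while the median replicate 2 width was 1400 bp in every group. The share in register within 200 bp was 74.1% in the lowest group and 80.5% in the highest.

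GLI2-recurrent regions with high scores were less often free of GLI1. In the lowest decile of scores 78.1% (75.2 to 80.7) had no GLI1 peak, against 59.4% (56.1 to 62.7) in the highest decile, where scores began at 79.4. Width was taken here over the GLI2 peaks of a region alone, since a GLI1 peak can widen the region it meets. Of GLI2-recurrent regions with a GLI2 width of 1000 to 1200 bp, 76.8% (74.6 to 78.8) had no GLI1 peak, against 53.7% (48.3 to 59.0) at 3600 bp and over. A wider stretch can be overlapped in more places, so the rule bears on this trend. Among GLI2 widths of 1400 to 1800 bp, the GLI1-free share was 77.9% (74.1 to 81.4) in the lowest decile of scores and 64.0% (60.2 to 67.7) in the highest. Fewer high-scoring regions were thus free of GLI1 within this range of widths too. Width can still vary with score inside the range, and its part in the trend was not tested.

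The 5 GLI2-only regions with the highest replicate 1 scores were 1800 to 2600 bp wide, at or above the upper quartile of the set. The first, with a score of 337, lay on chromosome 17 of mm9 from 39243401 to 39245400, and its 2000 bp peak had the same ends in both replicates. GLI1 peaks lay 9.4 kb away in replicate 1 and 4.2 kb away in replicate 2. The second, on chromosome 7 from 10910001 to 10912000, had a score of 246 and again identical 2000 bp peaks. It was isolated: its nearest GLI1 peaks were 67.8 and 39 kb away, and no other GLI2-only region lay within 912 kb. On chromosome 2, from 23145801 to 23147800, a score of 230 went with peaks of 2000 and 1800 bp and GLI1 gaps of 113 and 45 kb. The fourth, with a score of 171, spanned 34327801 to 34330400 of chromosome 7. Its peaks of 1800 and 2600 bp had centres 400 bp apart, and a GLI1 peak of replicate 1 lay 4.2 kb away. The last of them had a score of 153 and spanned 196696201 to 196698000 of chromosome 1. In 3 of the 5 the centres coincided. Over all 106 regions with a score of at least 100 the centres coincided in 34.9%, against 25.6% of the 6349 with a lower score. These 106 regions lay on all 19 autosomes, and 51.9% had a GLI1 peak within 10 kb, against 53.7% of the rest.

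A ranking that asked for both a high replicate 1 score and a wide replicate 2 peak picked other regions than the score alone. Its 10 best GLI2-only regions were 3200 to 5200 bp wide and had scores of 91.5 to 113. In 9 of the 10 the replicate 2 peak was the wider one, and in 9 the centres were 700 bp or more apart. The ranking itself asks for a wide replicate 2 peak, so these widths follow from it. A wider peak also leaves room for centres that are farther apart. GLI1 was near in most of them, with a peak within 5 kb in 8 of the 10, against 32.7% of all GLI2-only regions. Their greater width was not taken into account. The region ranked first, on chromosome 8 from 107649601 to 107653800, combined a 2000 bp peak of replicate 1 and a 4000 bp peak of replicate 2. A GLI1 replicate 2 peak adjoined it with no gap, and within 50 kb that list had 8 peaks, GLI1 replicate 1 had 2, GLI2 replicate 1 had 3 and GLI2 replicate 2 had 6. The second, on chromosome 15 from 29369601 to 29373600, had GLI1 gaps of 4.4 and 17.8 kb. Farthest from GLI1 among the 10 was chromosome 3 from 8255201 to 8259600, with gaps of 35.2 and 24.6 kb. The 5 widest regions were 5800 to 6600 bp wide with scores of 66.8 to 89.2. They were led by chromosome 13 from 3576801 to 3583400, where peaks of 4200 and 3800 bp had their centres 2600 bp apart.

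GLI1 peaks were found at a range of distances from GLI2-only regions. The nearest GLI1 peak lay at a median distance of 19.2 kb in replicate 1 (quartiles 7.6 and 40 kb) and 15.4 kb in replicate 2 (6.2 and 33.6 kb). Taking whichever GLI1 list was nearer, the median was 9 kb, and 53.7% of regions (52.5 to 54.9) had a GLI1 peak within 10 kb. Leaving out GLI1 replicate 2 changed the set to 7533 regions, with a share of 31.4%. Lists of equal length gave 4635 regions and a share of 35.6%. They kept the highest scores in replicate 1 and the widest peaks in replicate 2. For the 6455 regions the share was 7.28% (6.66 to 7.94) within 1 kb and 96.1% (95.6 to 96.5) within 50 kb. Around GLI1-only regions GLI2 peaks were less close, at medians of 31 kb in replicate 1 and 16.8 kb in replicate 2, and 43.3% (42.1 to 44.5) had one within 10 kb. The GLI2 replicate 1 list is the shortest of the 4, and these distances depend on list length.

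Places where GLI2-only regions stood far from any GLI1 peak were few. The farthest pair was on chromosome 5. One region spanned 94152601 to 94154400 and its neighbour 94156801 to 94158000, only 2.4 kb away. Their nearest GLI1 peak was 255.8 and 260 kb away. Within 50 kb of them each GLI2 list had 2 peaks and each GLI1 list none. On chromosome 9 from 38719601 to 38720800 the GLI1 gaps were 375 and 227 kb. A region of chromosome 7, from 15910001 to 15911400, had gaps of 287 and 209.6 kb. Gaps of 193 and 217 kb surrounded the region of chromosome 2 from 99459801 to 99461400. Scores of these 5 regions were low, between 50.3 and 59.3, and no region was wider than 1800 bp.

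The neighbourhood of GLI2-only regions held more GLI2 peaks than GLI1 peaks, relative to each list's own density. A region's flanks did not decide its own choice, but they hold peaks of other GLI2-only regions, which the rule did use. Where the lists differ in density over long stretches, the rule also favours stretches rich in GLI2 peaks and poor in GLI1 peaks. Leaving out the other GLI2-only regions does not remove this. A difference of this sign can thus follow from the rule, and the test below cannot show otherwise. Density was taken as peak centres per Mb in a band around every region, divided by the peaks per Mb of all autosomes in the same list. From 2 to 10 kb from the region edge this ratio was 1.07 and 1.12 for GLI1 replicates 1 and 2, and 1.21 and 1.22 for GLI2. The means were 1.09 ± 0.0378 for GLI1 and 1.22 ± 0.00693 for GLI2 (SD, n = 2). Both GLI2 lists thus lay above both GLI1 lists, by 0.124 on average. The two-sided exact permutation p was 0.33, the smallest that 2 lists against 2 allow, so no threshold of 0.05 can be reached.

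The difference extended over the wider bands. From 10 to 50 kb the ratio was 1.07 and 1.08 for GLI1 and 1.20 and 1.21 for GLI2, a difference of 0.133 (exact permutation p = 0.33). From 50 to 200 kb it was 1.07 and 1.09 for GLI1 and 1.14 and 1.15 for GLI2, a difference of 0.0679 (exact permutation p = 0.33). After Benjamini-Hochberg adjustment over the 3 bands each p remained 0.33. In these bands too, both GLI2 lists were above both GLI1 lists. Every ratio was above 1, but the autosomal span used for the density includes stretches without peaks. Flanks of other regions without a GLI1 peak were not measured, so whether GLI1 peaks were sparse here was not tested. When all GLI2-only regions and 2 kb on either side were left out of both the flanks and the density, the differences were 0.114, 0.122 and 0.0595. A first version of the measure pooled the bands and left the surroundings of all GLI2-only regions out of the flanks but not out of the density. It put both GLI2 lists below both GLI1 lists, with differences of -0.123, -0.134 and -0.200, and was replaced after its values had been seen because it removes GLI2-only peaks from one side of the ratio only. Leaving the zones out of the flanks alone, with each region keeping its own band, gave -0.121, -0.117 and -0.194. Pooled bands with the zones left out of both sides gave 0.111, 0.0978 and 0.0343.

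Around GLI1-only regions the order of the factors was turned. From 2 to 10 kb the ratio was 1.18 and 1.24 for GLI1 and 1.16 and 1.06 for GLI2. The gap was narrow between the replicate 1 lists, at -0.0208 for GLI2 minus GLI1, and wider between the replicate 2 lists, at -0.176. From 50 to 200 kb the replicate 1 lists differed by no more than -0.00358.

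**Figure D3:**
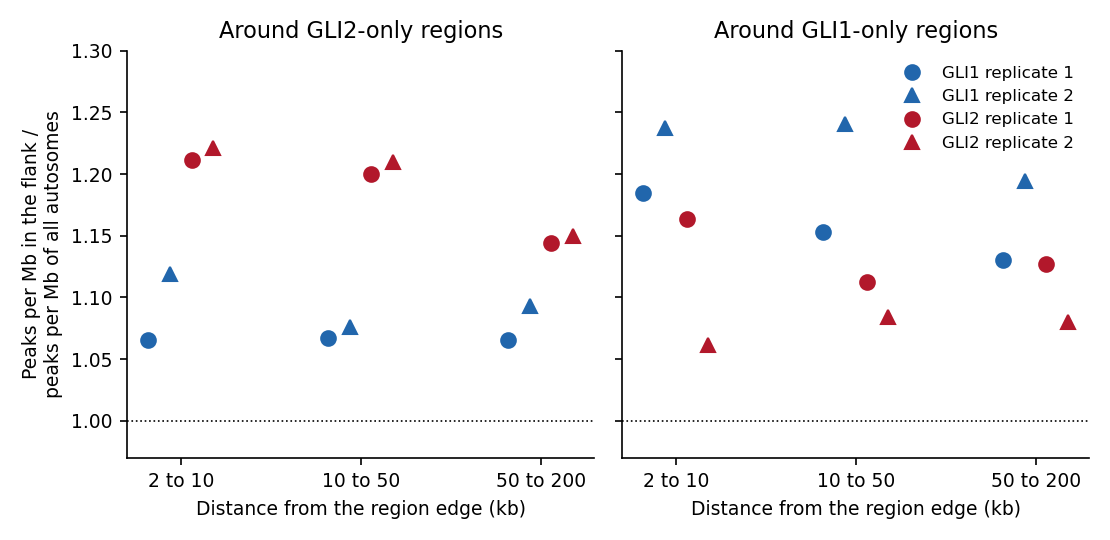
Peaks per Mb in the flanks divided by the peaks per Mb of all autosomes in the same list (y axis, no unit, axis not starting at 0) in 3 bands of distance from the region edge (x axis, kb), 1 point per list, around GLI2-only regions (left) and GLI1-only regions (right). The dotted line marks the density of all autosomes. On the left both red GLI2 points lie above both blue GLI1 points in every band, with 1.21 and 1.22 against 1.07 and 1.12 in the nearest one.

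GLI2-only regions were spread thinly, with few tight groups. The nearest other GLI2-only region lay at a median of 113 kb (quartiles 45.6 and 244 kb). Another one was found within 100 kb of 46.2% of regions (45.0 to 47.5) and within 10 kb of 6.2% (5.62 to 6.81). GLI1-only regions were spaced alike in these measures, with a median of 110 kb and shares of 46.3% and 5.62%. Chaining regions no more than 10 kb apart gave 195 groups of 2 or more, of which 9 had 3 or more. The single group of 4, singled out after its values were seen, lay on chromosome 17 from 46911001 to 46943400, a stretch of 32.4 kb. It held 4 peaks of GLI2 replicate 1, 6 of GLI2 replicate 2, 1 of GLI1 replicate 2 and 0 of GLI1 replicate 1, and its scores ran from 56.3 to 92.6.

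In windows of 1 Mb, GLI2-only regions averaged 2.66 per window, and 274 of the 2426 windows had none. The windows with most of them were both on chromosome 17. The one from 28000001 to 29000000 had 13 GLI2-only and 4 GLI1-only regions. Its peaks numbered 19 and 40 in the GLI1 lists and 31 and 45 in the GLI2 lists. The one from 46000001 to 47000000, which includes the group of 4, had 12 GLI2-only and 3 GLI1-only regions. There the lists had 26 and 51 GLI1 peaks and 27 and 46 GLI2 peaks. Next came chromosome 11 from 4000001 to 5000000, with 11 GLI2-only and 6 GLI1-only regions. It was tied at 11 with windows of chromosome 11 from 95000001 and of chromosome 19 from 3000001. Over the 2416 windows with any region, the numbers of GLI2-only and GLI1-only regions were weakly related (rho 0.174), and GLI2-only numbers followed the number of all merged regions more closely (rho 0.405). Windows share the lists' density and mappable sequence, so both are descriptions.

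Across autosomes, GLI2-only regions made up 4 to 6% of the merged regions on 17 of 19. The median was 4.93%, and the SD over autosomes was 0.639 percentage points. The highest share was 5.58% (5.05 to 6.14) on chromosome 11, with 390 regions, followed by chromosomes 12 (5.41%, 402 regions) and 10 (5.30%, 406 regions). The lowest shares were 3.13% (2.74 to 3.55) on chromosome 2, with 230 regions, and 3.24% (2.76 to 3.77) on chromosome 9, with 158 regions. GLI1-only regions were scarcest on the same chromosomes, at 3.39% and 3.59%. Both chromosomes had fewer peaks per Mb than the autosomes as a whole in all 4 lists. Chromosome 2 had 7.61 and 10.6 GLI2 peaks per Mb in replicates 1 and 2, and chromosome 9 had 6.09 and 12.9, against 10.5 and 19.1 over all autosomes. GLI1 peaks per Mb were 10.1 and 18.8 on chromosome 2, 8.66 and 18.9 on chromosome 9, and 16.8 and 21.9 over all autosomes. Chromosome 7, with a GLI2-only share of 5.01%, was lower still in GLI1 replicate 2, at 18.0 per Mb. In the other lists it was nearer the autosomes as a whole than chromosomes 2 and 9 were. It had 16.1 GLI1 peaks per Mb in replicate 1, and 9.66 and 17.5 GLI2 peaks per Mb in replicates 1 and 2. The part of peak density in the low shares was not tested.

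The balance between the factors shifted on a few chromosomes. Chromosome 12 had 402 GLI2-only against 323 GLI1-only regions, a ratio of 1.24, and chromosome 19 had 174 against 143, a ratio of 1.22. Chromosome 6 went the other way, with 377 against 452, a ratio of 0.834. Chromosome 6 held 6.88 and 6.84% of GLI1 peaks and 6.04 and 6.08% of GLI2 peaks, with no overlap between the factors. Chromosome 19 held 2.56 and 2.43% of GLI1 peaks and 2.83 and 2.80% of GLI2 peaks, again with no overlap between the factors. The shares did not overlap on chromosomes 1, 5 and 16 either, where the ratios were 0.998, 0.991 and 1.03. Chromosome 1 held 8.68 and 8.68% of GLI1 peaks and 8.13 and 8.19% of GLI2 peaks. On all other autosomes the shares of the factors overlapped. A lack of overlap thus also occurred where the 2 sets were nearly balanced. The part of the list shares in the balance was not tested. On chromosome 12 the shares overlapped, at 5.10 and 5.64% for GLI1 and 5.54 and 6.14% for GLI2. GLI2-only regions outnumbered GLI1-only regions on 11 of the 19 autosomes. The inputs were not analysed, so differences in chromosome copy number between the lines were not tested.

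**Figure D4:**
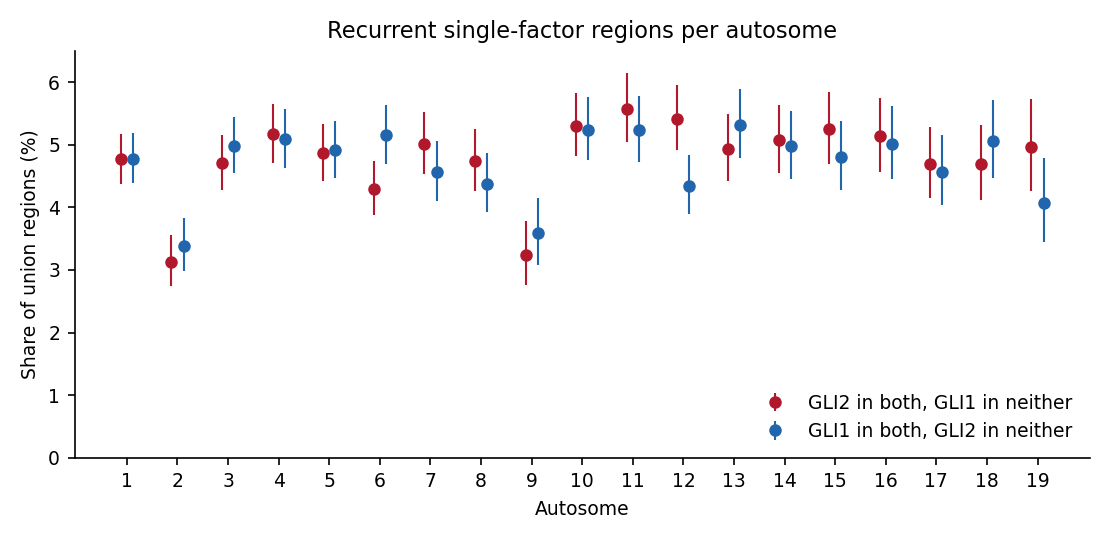
Share of all merged regions (y axis, %) that were GLI2-only (red) or GLI1-only (blue) on each of the 19 autosomes (x axis), with exact 95% intervals that cover counting error only. Chromosomes 2 and 9 are lowest for both sets, and the sets are farthest apart on chromosomes 12, 19 and 6.

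Along the chromosomes, GLI2-only regions were spread more evenly than GLI1-only regions. Mouse autosomes have their centromere at the start, and position was measured between the first and the last peak of any list. The first 20% of this span held 19.5% (18.5 to 20.5) of GLI2-only regions and the last 20% held 21.4% (20.4 to 22.4). GLI1-only regions were fewer at the start, with 16.4% (15.5 to 17.3), and more frequent at the end, with 26.1% (25.0 to 27.2). The share in the last 20% was lower for GLI2-only than for GLI1-only regions on 18 of 19 autosomes, and the share in the first 20% was higher on 16. Autosomes of 1 set of libraries are not replicates, and no test was made. Different lists stood apart at the ends. The last 20% held 26.1% of the peaks of GLI1 replicate 2, but 22.4% of GLI1 replicate 1, 22.2% of GLI2 replicate 1 and 21.5% of GLI2 replicate 2. The first 20% held 20.4% of the peaks of GLI2 replicate 2, but 17.4% of either GLI1 list and 18.0% of GLI2 replicate 1. The part of these lists in the difference between the sets was not tested.

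**Figure D5:**
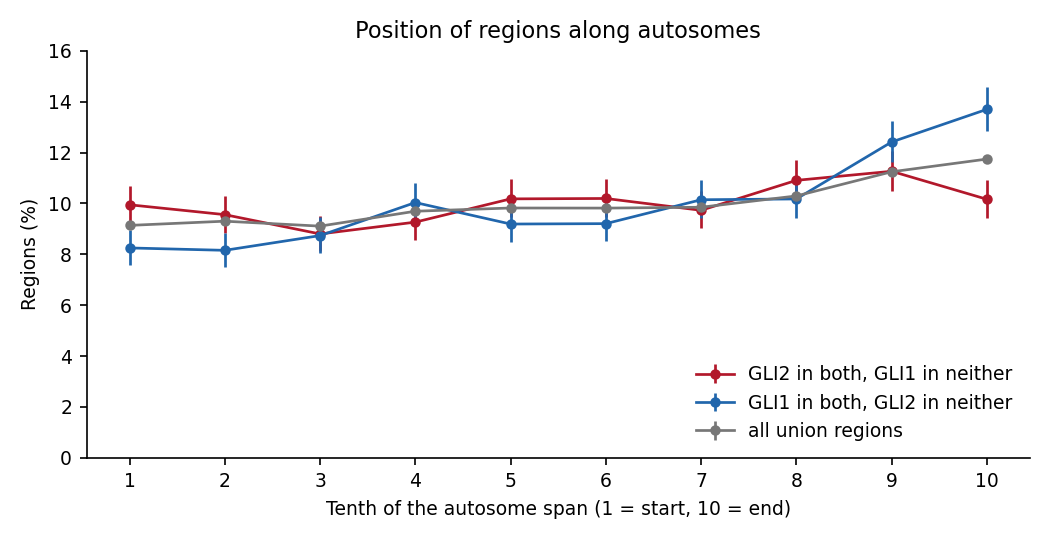
Share of regions (y axis, %) in each decile of the autosome span from the start to the end (x axis) for GLI2-only regions (red), GLI1-only regions (blue) and all merged regions (grey), with exact 95% intervals. In the last decile the GLI2-only set has 10.2% and the GLI1-only set 13.7%, with all merged regions between them at 11.7%.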

How the data were processed

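Anti-FLAG ChIP-seq was run on 4 ChIP libraries with 4 inputs, although the replicate 1 samples titled as inputs carry the antibody label Anti-FLAG and those of replicate 2 do not. Which input, if any, each list was called against was not learned from the labels. Per the submitters' processing notes, CASAVA 1.7 and BWA were used and the build was mm9. No label names a peak caller. The deposited lists give other values, namely the start and end of each peak in bp, and a score per peak whose meaning the authors do not state. Of 48921 GLI2 peaks in replicate 2, 48898 have a score of 0, so only replicate 1 scores were used. The lists were matched to ChIP samples by title, and the inputs were not used. Titles gave groups and replicate numbers, and the labels call the replicates biological.

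Peaks were merged at an overlap of 1 bp on autosomes. Coordinates are mm9 and counted from 1. The GLI2-only rule, the mirror set, the named regions and the planned measures were chosen with earlier results of these data known. The register of centres, position along chromosomes, shares by score or width, chains and window counts were added after seeing the data. The flank calculation was also revised after its first values, which had the opposite sign, had been seen. Flank densities were compared by a two-sided exact permutation test over 4 lists, and everything else is description. Named regions are the 10 with the best worse-of-2 rank (replicate 1 score, replicate 2 width), the 5 with the highest score, the 5 widest, the 5 farthest from GLI1, and the 3 fullest windows of 1 Mb. Genes, promoters and motifs were not analysed here, because the reference tables are of another build. Alternatives changed the overlap, peak width, joining, score minimum, list length, widest peaks, exclusion distance, chromosomes and lists used. The code was tested on simulated lists with known shared regions. Versions were scipy 1.17.1, pandas 2.3.3 and numpy 2.4.6 under Python 3.11.15, with figures by matplotlib 3.10.9.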

Additional observations from a re-analysis of the deposited data

Results flagged for a closer look

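The difference in flank density between the factors had opposite signs around the mirrored sets of regions, in both replicate numbers. GLI2 minus GLI1 was 0.124, 0.133 and 0.0679 around GLI2-only regions at 2 to 10, 10 to 50 and 50 to 200 kb, and -0.0984, -0.0984 and -0.0589 around GLI1-only regions. Under the first version of the flank measure the sign around GLI2-only regions was turned as well. This difference between the sets was not tested, and it was selected on the same 4 lists that define both sets. Around GLI1-only regions most of it lay between the replicate 2 lists.

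Chromosome X, outside the autosomes described above, held 286 regions with a peak in both GLI2 lists and in no GLI1 list. These are listed because they lie outside the chromosomes compared, and a count above 0 there is no finding. They were 3.82% of the 7484 merged regions of X, beside 289 (3.86%) for the mirror rule. Chromosome Y had 0 of either kind among 15 merged regions.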

How the results depend on the processing

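The number of GLI2-only regions stayed between 4635 and 6939 under 7 of 8 changes of definition, and was 2989 when no GLI1 peak was allowed within 10 kb. Leaving out a list gave 7243 to 36330, the highest without GLI2 replicate 1 (36330) and next without GLI2 replicate 2 (19984), where 1 GLI2 list is enough to enter. With peaks set to 500 bp widths were not compared. Under the other 7 definitions the median width was 1600 bp, and it ranged from 1200 to 1600 bp when lists were left out.

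The share within 10 kb of a GLI1 peak was 51.6% with peaks set to 500 bp, 49.9% with peaks within 1000 bp joined, 43.7% with replicate 1 scores of at least 50 and 35.6% with lists of equal length. The score minimum removes GLI1 peaks only, since the lowest replicate 1 score was 40.0 for GLI1 and 50.0 for GLI2. With it there were 6939 GLI2-only regions, and the flank differences were 0.131, 0.130 and 0.0699. Leaving out a list gave 31.4 to 54.4%. The share within 100 kb of another region was 42.8% with peaks set to 500 bp, 43.9% with a reciprocal overlap of 50%, 48.4% with scores of at least 50, 37.4% with equal lengths, and 25.9% with no GLI1 peak within 10 kb. Leaving out a list gave 49.8 to 95.1%.

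The flank difference was positive, with both GLI2 lists above both GLI1 lists or the lists that remained, in 36 of 42 values, over 12 of 14 settings, from 0.0343 to 0.151. The 6 others leave the zones around all GLI2-only regions out of the flanks but not out of the density, and by construction take GLI2-only peaks from the numerator alone. Among the 12 settings, the replicate block repeats the main values, and leaving out a list only drops it from the means. As both GLI2 lists were above both GLI1 lists from the start, these settings could not turn the sign. The first version of the measure, with pooled bands, gave -0.123, -0.134 and -0.200, and with each region's own band the values were -0.121, -0.117 and -0.194. These, and pooled bands with the zones left out of both (0.111, 0.0978 and 0.0343), were listed after the data were seen. Taken relative to each region's own chromosome, a choice made after seeing the data, it was 0.111, 0.121 and 0.057. With the replicate block the differences stayed 0.124, 0.133 and 0.0679, with an exact permutation p of 0.5, the smallest that 2 pairs allow. The labels do not say that equal numbers share a batch. Replicate differences of the factors over 2398 windows of 1 Mb with at least 10 peaks had a Pearson correlation of 0.199, and equal numbers also share the setting s. Unknown depth limits every statement that a peak is missing.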
